A study of Mus musculus with 17 samples.

Results

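The measurements described here compare hematopoietic stem cells (HSCs) titled C/EBPa KO with control HSCs at day 21 after injection of pIpC, a synthetic double-stranded RNA often used to switch on an inducible Cre recombinase. These 8 arrays, 4 KO and 4 control, were chosen by their sample titles out of 17 Affymetrix arrays in all; the others held fetal liver HSCs (3 arrays) and HSCs titled control and C/EBPa KO at day 7 (3 arrays each). All 8 samples came from adult mice that had received pIpC, and cells were sorted for lack of lineage markers and of CD48 and for presence of Sca-1, c-Kit and CD150. Control samples carry the genotype wild type. For the samples titled C/EBPa KO the genotype field gives Pu.1 knock-in (PU.1ki/ki), as does the series' design text, so the labels conflict. They name no Cre line or promoter, no strain, no age in weeks, and do not say whether replicates were separate animals or pools. Each p-value of the main fit therefore rests on the spread between samples within groups, pooled over all 17 arrays, and not on known separate animals.

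C/EBPa is a basic leucine zipper transcription factor known for driving myeloid progenitors towards granulocytes and monocytes, and it binds a palindromic DNA element as a dimer. PU.1, encoded by Spi1, is an ETS factor that acts with it on many myeloid genes. HSCs are mostly quiescent in adult marrow, and alternative fates open to their progeny include erythroid cells and megakaryocytes, whose genes are bound by GATA factors. The series asks how C/EBPa bears on the quiescence of adult HSCs.

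Values are the deposited intensities, analysed as log2, with 1 probe set standing for each gene. Of 18193 genes with a name, 16784 lay above the floor of the table, an intensity of 16, on at least 1 of the 17 arrays and were tested. Median intensity per array was 39.4 to 47.7 in control and 46.9 to 49.5 in KO, and 22.4% to 25.2% of probe sets stood at the floor in control against 21.7% to 23.3% in KO. The mean log2 ratio of 3' to 5' control probe sets, a sign of RNA quality, ran from −0.40 to 0.20 in control and from 0.19 to 0.30 in KO. These technical measures moved with the groups, and the calls below are given with and without them as covariates. The control arrays also varied more, with a median SD per gene of 0.46 against 0.35 on the log2 scale, and each control array correlated more closely with the KO arrays (mean r of 0.839 to 0.906 across genes) than with the other control arrays (0.820 to 0.860).

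Every KO array held little Cebpa, the transcript of C/EBPa itself. Its intensity was 275, 115, 115 and 532 in control replicates 1 to 4 and 26.7, 29.9, 25 and 39.8 in KO replicates 1 to 4. The groups did not overlap, and the log2 difference, KO minus control, was −2.82 (SE 0.48, 95% confidence interval −3.84 to −1.79, adjusted p = 0.0536), a level 7.04-fold lower in KO. Leaving out single arrays gave adjusted p-values between 0.0315 and 0.152, and the value passed 0.05 without control replicate 2. The place of this probe set relative to any deleted sequence was not analysed here.

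Spi1, the gene for PU.1, showed no such separation. Control arrays stood at 334, 364, 126 and 623 and KO arrays at 396, 245, 393 and 231, so that the groups overlapped. The difference was −0.03 (SE 0.41), with an interval from −0.90 to 0.85, which leaves room for changes of nearly that size in either direction. Among other C/EBP family members, Cebpb, which can replace C/EBPa in some settings, had −0.80 (SE 0.61) and Cebpd 1.06 (SE 0.67), both with overlapping groups. Of 5 measured family members 2 were higher and 3 lower, and only Cebpa had groups that did not overlap. Ddit3, the other higher member, had 0.57 (SE 0.32).

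Sorted cells carried HSC transcripts in both groups. Kit, the gene for the sorted receptor c-Kit, stood at 581 to 905 in control and 442 to 736 in KO, and Slamf1, the gene for CD150, at 156.5 to 1049 and 295 to 540. Procr, which encodes the endothelial protein C receptor used to enrich HSCs, was at 442 to 1148 and 264 to 798, and Hlf, an HSC transcription factor gene, at 1712 to 2816 and 833 to 2577. Itgam and Adgre1, which mark mature myeloid cells and macrophages, were at the floor throughout these 8 arrays, and the T cell gene Cd3e did not exceed 19.7. The T cell genes Cd4 and Cd8a were above the floor on all 8 arrays. Cd4 stood at 42.6 to 65.1 in control and 46.5 to 111 in KO, and Cd8a at 45.85 to 47.4 and 33.0 to 56.9. Other markers of mature cells were above the floor on some or all arrays. Cd3g, a further T cell receptor gene, reached 84.7 in KO replicate 4 and Gzma 155 in KO replicate 2. Csf1r, the macrophage growth factor receptor gene, reached 579 in KO replicate 2. Cd48, whose product was selected against, ranged from 18.6 to 658 in control, with the highest value in replicate 3, and from 90.3 to 308 in KO.

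Transcripts of mature lineages varied between arrays of a group. S100a9 and S100a8, which form the neutrophil protein calprotectin, reached 1890 and 1132 in control replicate 4 and 686 and 229 in control replicate 2, where KO arrays had at most 47.9 and 29.6. Gp9, a platelet glycoprotein gene, stood at 7224 in control replicate 1 and at 236 to 414 in the other control arrays. Klf1, the erythroid master regulator, was at 751 in control replicate 3 at 67.2 to 327 in the other control arrays and at 499 to 1658 in KO. In bulk RNA, fewer or more cells of a type and less or more RNA per cell cannot be told apart.

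limma called 3 genes at an adjusted p under 0.05 over all 16784 tested, which is 0.0179% of them, all higher in KO; 38 genes (0.226%) lay under 0.10, 30 of them higher (0.179%) and 8 lower (0.0477%). An unadjusted p under 0.05 was found for 1690 genes (10.1%), 1027 higher (6.12%) and 663 lower (3.95%). Groups did not overlap for 527 genes that were higher (3.14%) and 395 that were lower (2.35%), together 5.49%. With each array centred on its median, 5 genes were called, 3 higher and 2 lower, and the median difference over all genes moved from 0.00 to −0.19. A fit to the 8 day 21 arrays alone called 0 genes, with 1596 at an unadjusted p under 0.05. The count depended most on control replicate 2, without which 43 genes were called (33 higher, 10 lower). Dropping control replicate 1 gave 12 and control replicate 4 gave 10, while dropping KO replicate 1 gave 5 and KO replicate 2 gave 1.

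Ache had the smallest p-value. It encodes acetylcholinesterase, an enzyme anchored on red cell membranes and a classical stain for rodent megakaryocytes. Its intensity was 39.3, 39.1, 147 and 75.5 in control and 727, 358, 763 and 600 in KO, with the lowest KO array above the highest control array. Ache rose 9.14-fold, a log2 difference of 3.19 (SE 0.37, adjusted p = 0.0139). The call held whichever of the 8 arrays was left out, with adjusted p-values up to 0.0494, and in 12 of 13 other settings; the exception was the fit to 8 arrays alone. At day 7 both groups stood near the day 21 control level, with 65.9 to 105 in control and 79.3 to 92.4 in KO, and a difference of −0.02 (SE 0.43).

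Adgrg3 rose by 2.93 (SE 0.39, adjusted p = 0.0296). It encodes GPR97, an adhesion G protein-coupled receptor found on granulocytes. Control arrays stood at 72.7, 39.9, 51.4 and 64.2 and KO arrays at 281, 474, 286 and 854, with KO replicate 4 the highest and no overlap. Without KO replicate 2 its adjusted p was 0.0608, and without control replicate 3 it was 0.0590. A covariate for the floor share or for the 3' to 5' ratio gave Adgrg3 an adjusted p of 0.161 in both fits, against 0.0278 and 0.0395 for Ache. Of 18 measured adhesion G protein-coupled receptors 7 were higher and 10 lower, with a median of −0.05, and Adgrg3 was the member called.

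Mvb12b, a subunit of the ESCRT-I complex that sorts ubiquitinated membrane proteins into vesicles, rose by 2.61 (SE 0.36, adjusted p = 0.0309). Its intensity was 197, 165, 82.9 and 157 in control and 524, 766, 1402 and 1050 in KO. Both day 7 groups resembled the KO arrays rather than the control arrays of day 21, at 600 to 794 in control and 501 to 913 in KO. Its other 3 probe sets had differences of 0.45, 1.16 and 1.24, none of them called, and their mean with the main one was 1.37 (adjusted p = 0.198). Dropping control replicate 3 or any of KO replicates 2, 3 and 4 ended the call, with adjusted p-values from 0.0590 to 0.105. It was also lost with the floor share (0.178) or the 3' to 5' ratio (0.216) as a covariate. Among 26 measured ESCRT subunits 12 were higher and 14 lower, with a median of −0.09.

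**Figure D1:**
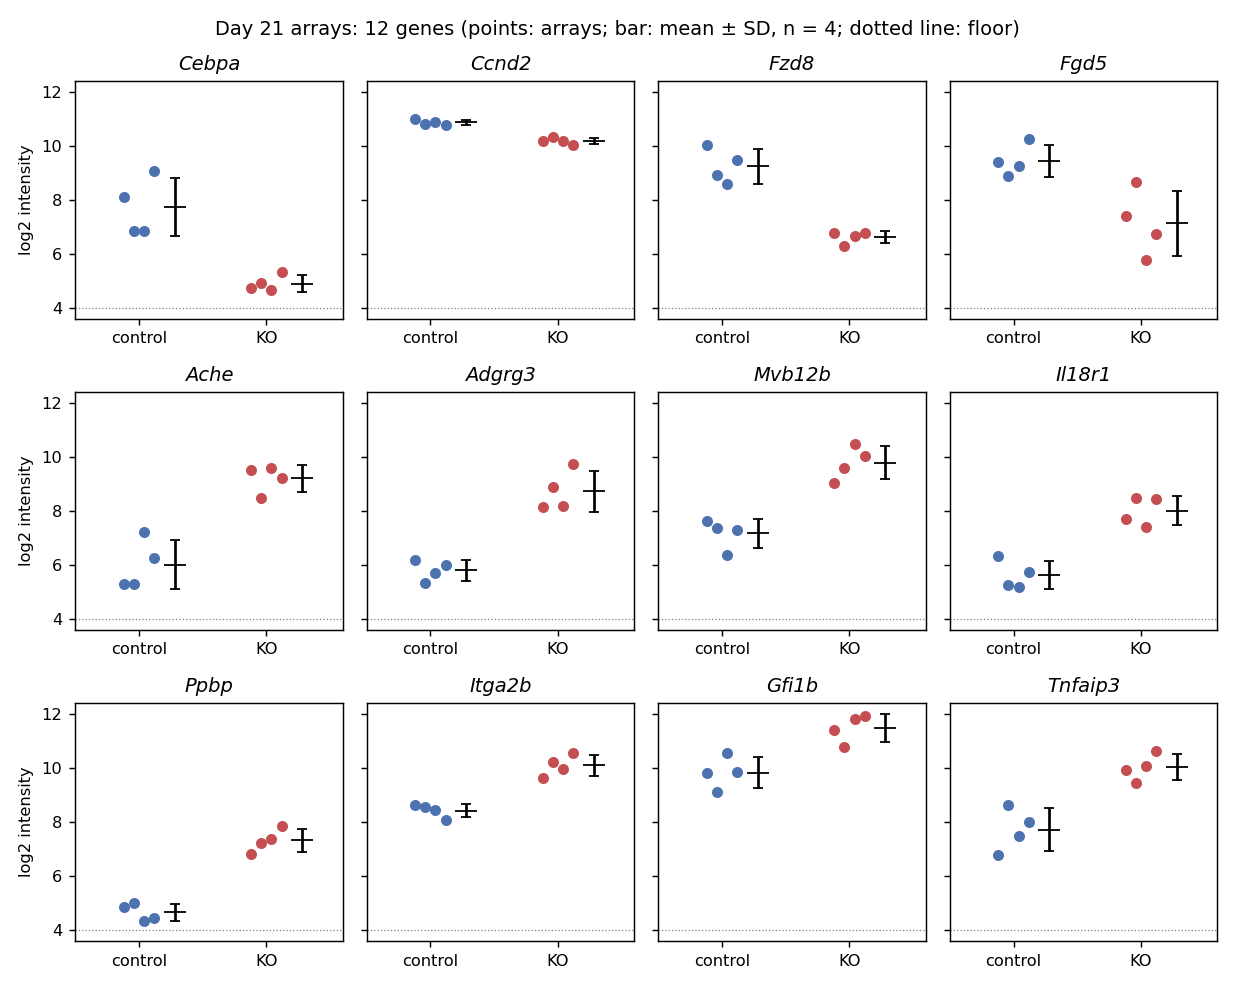
Log2 intensity of 12 genes on each day 21 array, with blue points for control and red points for KO, and bars for mean ± SD (n = 4); the dotted line is the floor at 4. Cebpa, Ccnd2, Fzd8 and Fgd5 in the top row are lower on all KO arrays than on any control array, and the 8 genes in the other rows are higher, Ache, Adgrg3 and Mvb12b being the called ones.

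Erythroid genes were higher in KO for nearly the whole list. Of 31 measured members 29 were higher and 2 lower, against 8446 higher (50.3%) of all genes, with a median log2 difference of 1.17 against 0.00. In 6 members, or 19.4%, all KO arrays lay above all control arrays, against 3.14% of all genes. Per array, the mean log2 level of the list was 6.89, 6.72, 7.62 and 7.24 in control and 8.54, 7.39, 8.98 and 8.72 in KO. KO replicate 2 therefore lay within the range of the control arrays, below control replicate 3, and the median of the members was 1.40 without KO replicate 2 and 0.91 without KO replicate 3.

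Transcription factors of the erythroid programme were led by Gfi1b, a repressor needed for erythroid and megakaryocytic differentiation. It stood at 891, 555, 1486 and 911 in control and 2701, 1746, 3544 and 3890 in KO, without overlap, a difference of 1.65 (SE 0.32, adjusted p = 0.0864). Klf1 had 1.89 (SE 0.74) and Gata1, the lineage's founding GATA factor, 1.27 (SE 0.71), both with overlapping groups. Surface and membrane genes included Kel, which encodes the Kell blood group antigen. It was at 19.7, 16, 28.8 and 97.8 in control and 263, 92.8, 533 and 606 in KO, a difference of 3.28 (SE 0.67, adjusted p = 0.108), with KO replicate 2 just under control replicate 4. Aqp1, a red cell water channel, had 2.61 (SE 0.56, adjusted p = 0.132), from 74.8 to 434 in control to 817 to 1751 in KO. Mfsd2b, an exporter of sphingosine 1-phosphate in red cells and platelets, had 3.44 (SE 0.91, adjusted p = 0.233).

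Heme and iron genes partly share this list. Of 17 measured 14 were higher, with a median of 0.65. Slc25a38, the mitochondrial glycine carrier that feeds heme synthesis, stood at 66.7 to 92.0 in control and 121 to 247 in KO, a difference of 1.19 (SE 0.29, adjusted p = 0.180). Slc40a1, the iron exporter ferroportin, had 2.17 (SE 0.73). Markers of late erythroid cells differed among themselves. Slc4a1, the band 3 anion exchanger of red cells, had 16 to 31 in control and 30.1 to 254 in KO. Hba-a1, an alpha globin gene, had 21.4 to 30.6 and 25 to 29.6, and Alas2, the erythroid enzyme that starts heme synthesis, 61.8 to 94.3 and 16.8 to 89.6.

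Promoters of erythroid genes are shown for the GATA motif because this list had the highest median difference. In the 250 bases before RefSeq gene starts (GRCm38.p6), AGATAA on either strand was found for 8 of the 25 erythroid genes with a promoter in the table, or 32%, against 11.4% of all 27025 genes. The C/EBP motif searched, TTGCNNAA on either strand, was found for 2 of these 25 genes (8%), against 10.8% of all genes. In the megakaryocyte and platelet list, AGATAA was found for 4 of 22 genes (18.2%) and TTGCNNAA for 2 of 22 (9.09%). The stretches below hold the motif, or its reverse complement TTATCT, in capitals. They lie at chr6:41704356-41704401 (Kel, minus strand), chr4:134864473-134864518 (Rhd, plus strand, the Rh blood group gene) and chr9:21963605-21963650 (Epor, minus strand, the erythropoietin receptor gene). Genes with an AGATAA match were not only those that stood highest in KO. Among them Alas2 had a difference of −0.62, Epor 1.27 and Kel 3.28, each with overlapping groups. A match is a description of the letters and not evidence of binding.
Kel: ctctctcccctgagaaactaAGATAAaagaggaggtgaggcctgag
Rhd: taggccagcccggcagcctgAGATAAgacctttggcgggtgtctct
Epor: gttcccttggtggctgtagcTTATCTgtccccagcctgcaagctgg

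Platelet and megakaryocyte genes were higher as well. Of 28 measured members 21 were higher, against 50.3% of all genes, and the median was 0.82. In 7 members (25%, against 3.14% of all genes) the groups did not overlap, with KO higher. The mean log2 level of the list was 7.16, 7.05, 6.95 and 7.30 in control and 7.61, 7.93, 8.05 and 8.13 in KO, so that each KO array exceeded each control array. Leaving out single arrays gave medians from 0.65 to 0.91.

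Itga2b, which encodes the platelet integrin CD41, stood at 394, 376, 350 and 267 in control and 787, 1193, 996 and 1509 in KO, a difference of 1.67 (SE 0.28, adjusted p = 0.0536). Its partner Itgb3 had 2.02 (SE 0.60). Among the platelet chemokines, Ppbp had 29.0, 32.2, 20.1 and 21.6 in control and 113, 151, 165 and 229 in KO, a difference of 2.66 (SE 0.43, adjusted p = 0.0536). Pf4 was brighter, with 175, 133, 226 and 658 against 1540, 1623, 3332 and 3238, and had 3.23 (SE 0.90, adjusted p = 0.254). Control arrays had an SD of 1.01 on the log2 scale for Pf4 and 0.33 for Ppbp. Each SE draws on the spread within all 5 groups, and the fetal liver arrays had an SD of 2.625 for Pf4. The adjusted p of Pf4 was larger than that of Ppbp despite its greater difference. Gp1bb, a subunit of the receptor for von Willebrand factor, had 2.29 (SE 0.58), Plek, the signalling protein pleckstrin, 2.12 (SE 0.72), and Treml1, a receptor of platelet granules, 1.38 (SE 0.47). The other 7 members were lower, each with overlapping groups. Gp9 had −1.08 (SE 0.80), with control replicate 1 far above the rest, and 0.07 without that array. Gp5, a further platelet glycoprotein gene, had −0.14, with control replicate 4 at 1022 and the other arrays at 41.5 to 169, and 0.92 without that array. Vwf, the gene for von Willebrand factor, had 0.85 (SE 0.29), also with overlapping groups.

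Mast cell and basophil genes split. Of 15 measured members 5 were higher and 9 lower, with a median of −0.03. The groups did not overlap in 3 members (20%, against 3.14% of all genes), with KO higher. Fcer1a, the alpha chain of the IgE receptor, was at the floor on all 4 control arrays and at 52.3, 78.8, 179 and 97.4 in KO, at least 5.76-fold higher (adjusted p = 0.132). Cpa3, a mast cell carboxypeptidase, stood at 24.4, 17.1, 19.1 and 17.4 in control and 72.6, 111, 45.9 and 73.7 in KO, a difference of 1.91 (SE 0.42, adjusted p = 0.144). Mitf, a transcription factor of mast cells, had 1.99 (SE 0.62). The mast cell and basophil protease gene Mcpt8 had 35.4 to 59.1 in control and 31.4 to 47.2 in KO.

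The granulocyte and monocyte programme, which C/EBPa is known to drive, had 10 of 25 measured members higher and 15 lower. Its median was −0.11, and ran from −0.37 without KO replicate 1 to 0.05 without control replicate 2. Mpo, the neutrophil peroxidase gene, stood at 29.3, 592, 448 and 431 in control and 46.5, 252, 24.2 and 29.9 in KO. Control replicate 1 was as low as the KO arrays, and the difference was −2.16 (SE 1.01, adjusted p = 0.504). Elane, the neutrophil elastase gene, was at the floor on 3 KO arrays and 1 control array and had −1.17 (SE 0.81). Csf3r, the G-CSF receptor gene, had −0.39 (SE 0.25). Among 11 measured neutrophil granule genes 1 was higher and 8 lower, with a median of −0.53, or −0.08 without control replicate 4, the array with the most calprotectin transcripts.

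Members of this programme also lay higher in KO. Cst7, an inhibitor of granule cathepsins, was at the floor on all control arrays and at 19.6, 53.9, 93.1 and 103 in KO, at least 3.52-fold higher (adjusted p = 0.170). Nkg7, a cytotoxic granule gene, stood at 84.8 to 222 in control and 343 to 831 in KO, a difference of 1.91 (SE 0.72). Nkg7 is also among 13 measured T and NK cell markers, of which 6 were higher and 7 lower, with a median of −0.08. In that list the groups did not overlap for 3 higher members, Nkg7, the granzyme gene Gzma (1.35) and the perforin gene Prf1 (0.77, SE 0.30), and for 2 lower ones, Cd3d (−0.58) and Cd8b1 (−0.43). These are 23.1% and 15.4% of the list, against 3.14% and 2.35% of all genes. Both lower members were dim. Cd3d stood at 29.0 to 48.0 in control and 23.1 to 28.6 in KO, and Cd8b1 at 26.7 to 35.3 and 21.0 to 25.2. Gzma, on the higher side, was at 16 to 18.3 in control and 19.8 to 155 in KO. Ms4a3, a marker of granulocyte and monocyte progenitors, had 1.67 (SE 0.61), with overlapping groups.

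HSC identity genes were lower more often than higher, without a called member. Of 34 measured 12 were higher and 22 lower, with a median of −0.13, which ran from −0.26 without KO replicate 1 to 0.00 without KO replicate 3. Of the lower members 4 did not overlap (11.8%, against 2.35% of all genes), and of the higher members 1 (2.94%, against 3.14%). The list's mean log2 level was 9.61, 9.15, 9.11 and 9.20 in control and 9.26, 9.25, 8.94 and 8.88 in KO, with overlapping ranges. Fgd5, a gene whose reporter marks HSCs, stood at 675, 466, 601 and 1220 in control and 167, 400, 55.1 and 105 in KO, a difference of −2.30 (SE 0.52, adjusted p = 0.144). At day 7 Fgd5 was below the day 21 control arrays in both groups, at 150 to 379 in control and 151 to 310 in KO. The day 7 difference was −0.17 (SE 0.60). Ndn, which encodes the growth suppressor necdin, had 1000, 743, 917 and 1038 in control and 229, 639, 264 and 202 in KO, a difference of −1.63 (SE 0.37, adjusted p = 0.155), and −1.70 to −2.17 on 4 further probe sets. Hoxa9, a homeobox gene of HSCs and progenitors, had −0.72 (SE 0.30). Hlf had −0.65 (SE 0.29), Procr −0.74 (SE 0.41), Kit −0.18 (SE 0.19) and Slamf1 −0.04 (SE 0.80), all 4 with overlapping groups. The other probe set of Hlf had −0.01. Among the 12 higher members, Hoxb5 had 1.38 (SE 0.61), with overlapping groups. Ctnnal1 had 1.24 (SE 0.72), without overlap, and 1.74 on its other probe set.

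Genes typical of multipotent progenitors had a median of 0.88, with 9 of 14 measured higher and 3 of them (21.4%, against 3.14% of all genes) without overlap. Wfdc17, a secreted protease inhibitor, had the greatest difference, with 42.0, 90.9, 39.8 and 40.8 in control and 999, 411, 745 and 1248 in KO, which is 3.98 (SE 0.69, adjusted p = 0.0540). Cdk6, the cyclin D kinase that quickens exit of HSCs from quiescence, stood at 755, 1177, 1288 and 1016 in control and 2018, 2686, 2016 and 2329 in KO, a difference of 1.11 (SE 0.23, adjusted p = 0.108). Plac8, a progenitor gene, had 1.35 (SE 0.60). The list's median was 0.51 without control replicate 1.

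Cyclin D2 went the other way from its kinase. Ccnd2 stood at 2034, 1779, 1887 and 1757 in control and 1140, 1276, 1154 and 1043 in KO, a narrow spread in both groups, with a difference of −0.69 (SE 0.11, adjusted p = 0.0536), or 0.618 times the control level. On 6 further probe sets it was −1.05 to −1.60. Of 30 measured genes of quiescence and CDK inhibition 15 were higher and 15 lower, with a median of 0.00. Cdkn1c, which encodes the inhibitor p57, had −1.17 (SE 0.67), with control replicate 1 at 746 and the other control arrays at 115 to 134. Cdkn2d, the gene for the CDK4 and CDK6 inhibitor p19, had 1.19 (SE 0.40), and Egr2, an immediate early transcription factor gene, 2.87 (SE 0.69, adjusted p = 0.173), at 30.8, 17, 37.5 and 48.6 in control and 388, 184, 336 and 113 in KO.

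Genes of Wnt and frizzled signalling were lower more often than higher. Fzd8, a frizzled receptor reported to hold HSCs in quiescence, stood at 1052, 476, 380 and 712 in control and 108, 78.5, 102 and 108 in KO. The groups did not overlap and the difference was −2.63 (SE 0.45, adjusted p = 0.0540), with an adjusted p of 0.0490 to 0.149 when single arrays were left out. Of 24 measured genes of Wnt and frizzled signalling 7 were higher and 17 lower, with a median of −0.22 (−0.37 without KO replicate 1, −0.13 without KO replicate 4), and 4 members (16.7%, against 2.35% of all genes) were lower without overlap. The list's mean level was 6.63 to 7.01 in control and 6.32 to 6.58 in KO. Tcf7l2, a nuclear effector of Wnt signalling, had −1.47 (SE 0.35, adjusted p = 0.169) on its brightest probe set, but 0.50, 0.83 and 0.98 on its other 3.

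Among the other genes with the smallest p-values on the lower side, Myadm, a myeloid membrane protein gene, stood at 349, 178, 830 and 672 in control and 114, 119, 70.4 and 85.6 in KO, a difference of −2.18 (SE 0.47, adjusted p = 0.129). Dusp6, a phosphatase that shuts off ERK, had −1.70 (SE 0.38, adjusted p = 0.146), Srpk2, a kinase of splicing factors, −1.60 (SE 0.36, adjusted p = 0.145), and Trp53bp1, a DNA break response gene, −1.36 (SE 0.31, adjusted p = 0.144). Other probe sets of Myadm, Srpk2 and Trp53bp1 gave values from −1.21 to 0.96. Ccser1 was at the floor on all KO arrays and at 19.5 to 262 in control, at least 5.40-fold lower (adjusted p = 0.162). At day 7 both groups were near the floor for Ccser1, at 16 to 23.7 in control and 19.1 to 23.4 in KO. Snhg7, a long noncoding RNA gene, had −1.26 (SE 0.23, adjusted p = 0.0643).

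The C/EBP motif was looked for in these genes because they were lower where Cebpa was low. TTGCNNAA was found before the start of 3 of 12 genes named on the lower side with a promoter in the table, Ndn, Myadm and Srpk2, against 10.8% of all genes, and before 0 of 14 on the higher side. AGATAA was found for 1 of the 12 and 0 of the 14. The stretches of Ndn (chr7:62348027-62348065, plus strand) and Myadm (chr7:3288899-3288946, plus strand, with the reverse complement of the motif) are shown with the match in capitals. With so few genes the shares are a description only.
Ndn: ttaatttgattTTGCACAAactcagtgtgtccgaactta
Myadm: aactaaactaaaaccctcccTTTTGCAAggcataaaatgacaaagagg

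**Figure D2:**
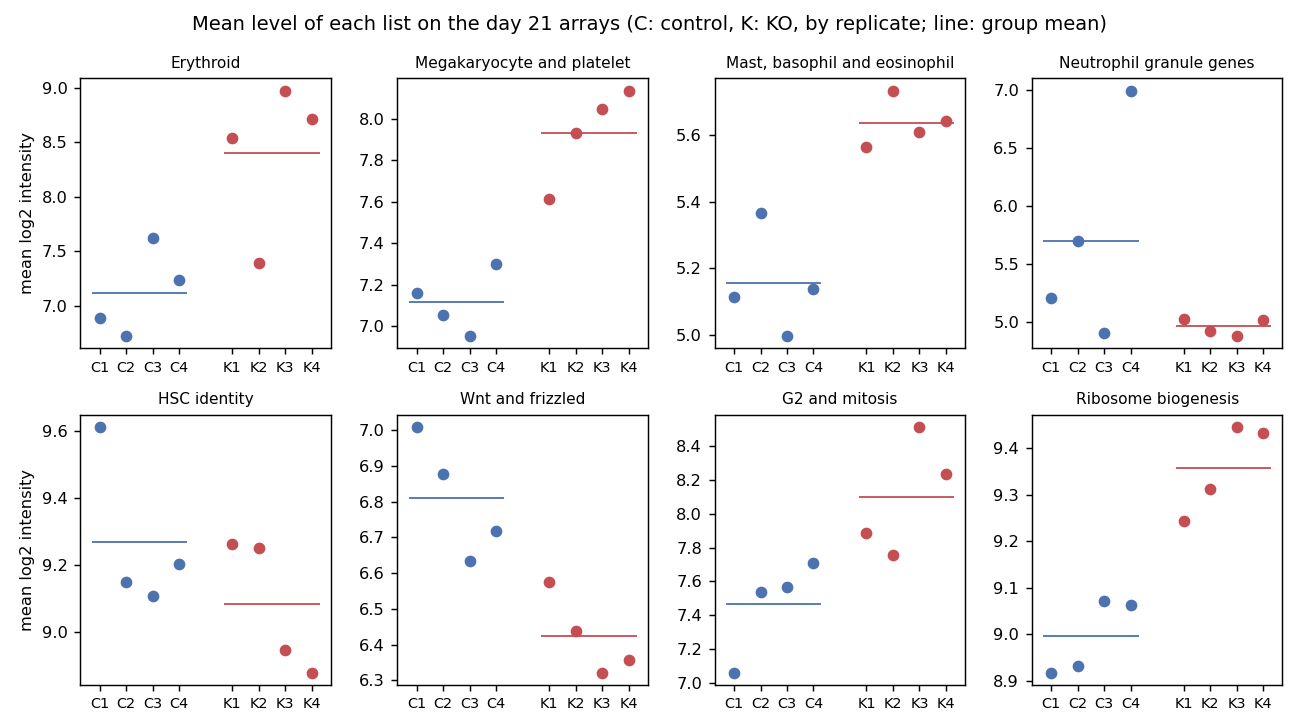
Mean log2 intensity of 8 gene lists on each day 21 array (C1 to C4 control, K1 to K4 KO, lines for group means; each panel has its own axis, which does not start at 0). Megakaryocyte, mast cell, mitotic, ribosome biogenesis and Wnt lists do not overlap between groups, erythroid genes overlap through K2, and neutrophil genes are spread by C4 at 7.00. The mean over all genes tested was itself 6.59 to 6.71 in control and 6.70 to 6.79 in KO. Mitotic ranges nearly touch, with control up to 7.71 and KO from 7.76. In the mast cell list 9 of 15 members were lower in KO.

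Genes of G2 and mitosis were mostly higher in KO. Of 57 measured 48 were higher, with a median of 0.62, or 0.40 without KO replicate 3, and 6 (10.5%, against 3.14% of all genes) were higher without overlap. The mean log2 level was 7.06, 7.54, 7.57 and 7.71 in control and 7.89, 7.76, 8.51 and 8.23 in KO. Smc2, a condensin subunit, had 2.09 (SE 0.57), with −0.77 to 0.50 on its other 4 probe sets, and Ttk, a spindle checkpoint kinase, 2.23 (SE 0.63, adjusted p = 0.254). Aspm, a spindle pole gene outside this list, stood at 39.0, 50.1, 27.9 and 132 in control and 396, 936, 1402 and 205 in KO, a difference of 3.46 (SE 0.67, adjusted p = 0.0864), with 0.37 to 2.31 on its other 4 probe sets. Genes of DNA replication and G1/S were closer to balance, with 26 of 39 higher and a median of 0.20 (0.00 after median centring, 0.08 without KO replicate 3); Rrm1, a ribonucleotide reductase subunit, had 0.99 (SE 0.25).

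Ribosome biogenesis genes had small differences. Of 44 measured 36 were higher, with a median of 0.37, and after median centring 29 were higher and 15 lower, with a median of 0.17. The list's mean level was 8.92 to 9.07 in control and 9.24 to 9.45 in KO. Pes1, a factor of 60S subunit maturation, had 2.52 (SE 0.63, adjusted p = 0.208), although its other probe set had 0.06. Mitochondrial ribosomal proteins had 51 of 73 higher and a median of 0.45 (0.30 without control replicate 4), and nuclear respiratory chain genes 54 of 85 and 0.15 (0.04 without KO replicate 3), a median that turned to −0.05 after median centring. Pgk1, a glycolytic enzyme gene, was lower at 1457, 1923, 2167 and 2049 in control and 823, 661, 1210 and 1080 in KO, a difference of −1.03 (SE 0.21, adjusted p = 0.0947), with −1.11 and −1.06 on its other 2 probe sets. Aldoa, the gene for aldolase A of the same pathway, had 0.55 (SE 0.16), also without overlap.

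Among genes of NF-kB feedback 16 of 19 were higher, the median being 0.57, or 0.34 without control replicate 1. Tnfaip3, which encodes A20, an inhibitor of NF-kB, stood at 109, 395, 178 and 256 in control and 980, 701, 1088 and 1578 in KO, a difference of 2.31 (SE 0.39, adjusted p = 0.0536). Day 7 arrays of both groups held 749 to 1262, above all day 21 control arrays. Interferon-stimulated genes, of interest because pIpC elicits interferon, showed a median of 0.39, and 26 of 36 lay above 0. Their mean level was 6.98, 7.65, 7.23 and 7.54 in control and 7.59, 7.50, 7.66 and 8.73 in KO, and the median was 0.17 without KO replicate 4. Usp18, a brake on interferon signalling, had 2.16 (SE 0.49, adjusted p = 0.146).

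Receptors and signalling genes among the smallest p-values included Il18r1, a chain of the interleukin-18 receptor. It stood at 80.7, 38.4, 36.2 and 52.7 in control and 208, 359, 168 and 345 in KO, a difference of 2.38 (SE 0.36, adjusted p = 0.0536). Cd69, an early activation receptor, was at the floor on 3 control arrays and at 79.8 on control replicate 2, and at 96.6, 383, 342 and 437 in KO, a difference of 3.51 (SE 0.67, adjusted p = 0.0808). H2-Ob, a chain of the MHC class II chaperone DO, was at the floor on all control arrays and at 34.0 to 119 in KO, at least 4.55-fold higher (adjusted p = 0.0947). Day 7 arrays of both groups held H2-Ob above the floor, at 54.1 to 192 in control and 64.0 to 138 in KO. Hbs1l, a ribosome rescue GTPase gene, stood at 298, 425, 443 and 200 in control and 1548, 1158, 1380 and 967 in KO, a difference of 1.93 (SE 0.30, adjusted p = 0.0536), but its other 2 probe sets had −0.03 and 0.15. Thoc5, of the mRNA export complex THO, had 1.89 (SE 0.33, adjusted p = 0.0610).

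Chromatin genes varied by member. Of 22 measured polycomb and DNA methylation genes 14 were higher, with a median of 0.35, which was 0.13 without control replicate 3 and 0.15 after median centring. Pcgf2, a subunit of polycomb complex PRC1, had 1.63 (SE 0.37, adjusted p = 0.148), at 76.8 to 128 in control and 236 to 418 in KO, and −0.57 on its other probe set. Cbx7, a chromobox subunit that favours HSC self-renewal, had 2.36 (SE 0.56, adjusted p = 0.173), with −0.58 and 2.32 on its other probe sets. Dnmt1, the maintenance DNA methyltransferase, had −1.02 (SE 0.35, adjusted p = 0.339), at 1633 to 3825 in control and 904 to 1598 in KO, and −0.82 and 0.19 on its other probe sets. Mycn, a MYC family gene of HSCs, had 0.60 (SE 0.38), with overlapping groups and KO replicate 3 at 1242.

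**Figure D3:**
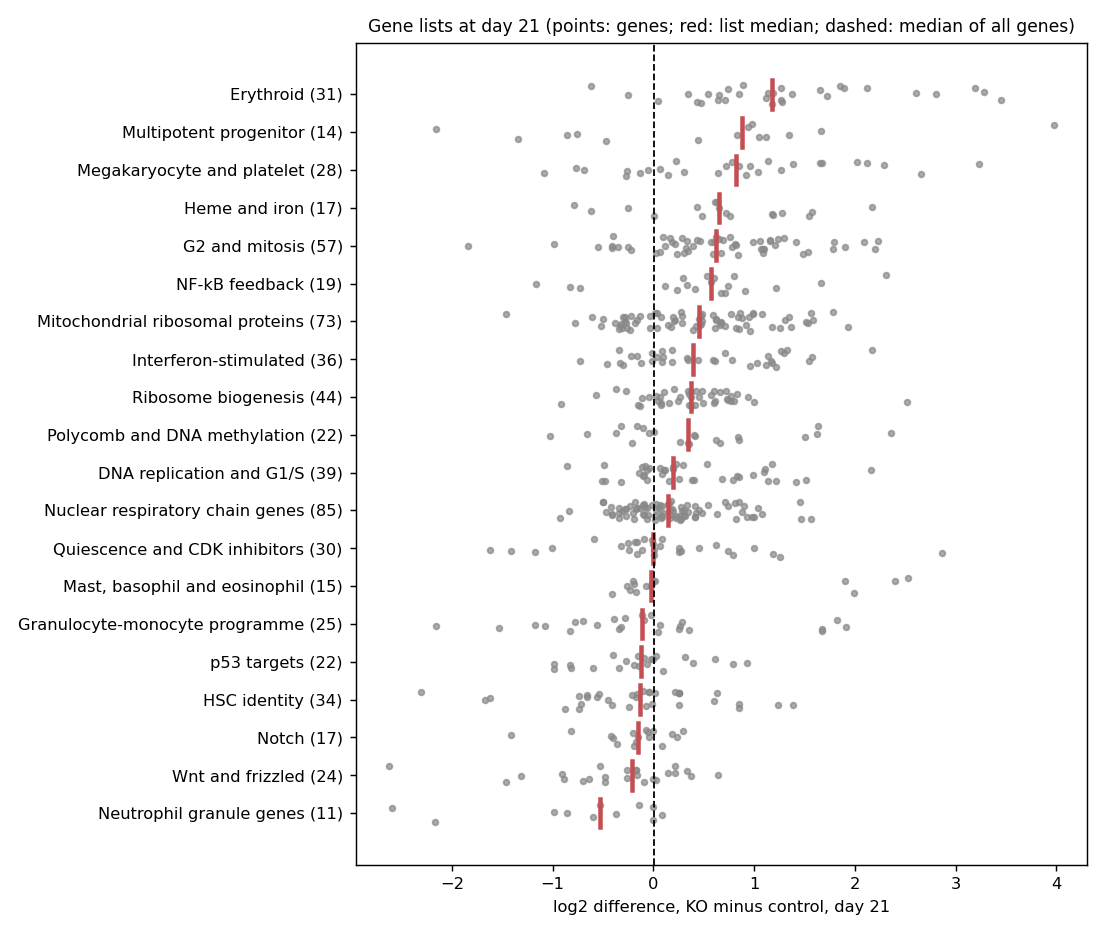
Log2 difference, KO minus control at day 21, of each measured gene (grey points) in 20 gene lists, ordered by list median (red); numbers in brackets are measured genes and the dashed line is the median of all genes tested, 0.00. Erythroid genes lie almost wholly to the right, with a median of 1.17, and neutrophil granule genes have the lowest median, −0.53.

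The day 21 values were set beside those of day 7, where 3 KO arrays were compared with 3 other control arrays and limma called 0 genes (1255 higher and 1073 lower without overlap, or 7.48% and 6.39%). The difference between both effects was tested for every gene and called for 0 of 16784, the lowest adjusted p being 0.341 and 758 genes (4.52%) having an unadjusted p under 0.05, so no gene is called particular to day 21. The genes named above were chosen by their day 21 values, which favours larger values at that day. Cebpa differed by −2.73 (SE 0.55) at day 7 and Fzd8 by −1.85 (SE 0.52), both without overlap. Pf4 had 3.97 (SE 1.04) and Cd69 3.33 (SE 0.78) at day 7. Adgrg3 had 0.81 (SE 0.45), Itga2b 0.54 (SE 0.33), and Tnfaip3 −0.10 (SE 0.45).

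Some genes had opposite signs at the 2 days. Egr2 differed by −1.97 (SE 0.80) at day 7, where control arrays stood at 226 to 896 and KO arrays at 61.1 to 205, and by 2.87 at day 21, without overlap at either day (adjusted p of the difference between effects = 0.534). Thoc5 had −0.97 (SE 0.39) at day 7 and 1.89 at day 21, again without overlap (adjusted p of the difference = 0.341). Of the 38 genes with an adjusted p under 0.10 at day 21, 25 had the same sign at day 7. The share of all genes with the same sign at both days was not counted. Over all 16784 genes, 8769 were higher in KO at day 7. At day 7 the erythroid median was 0.73 (27 of 31 genes higher), the megakaryocyte median 0.39 (21 of 28) and the mitotic median 1.19 (55 of 57).

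**Figure D4:**
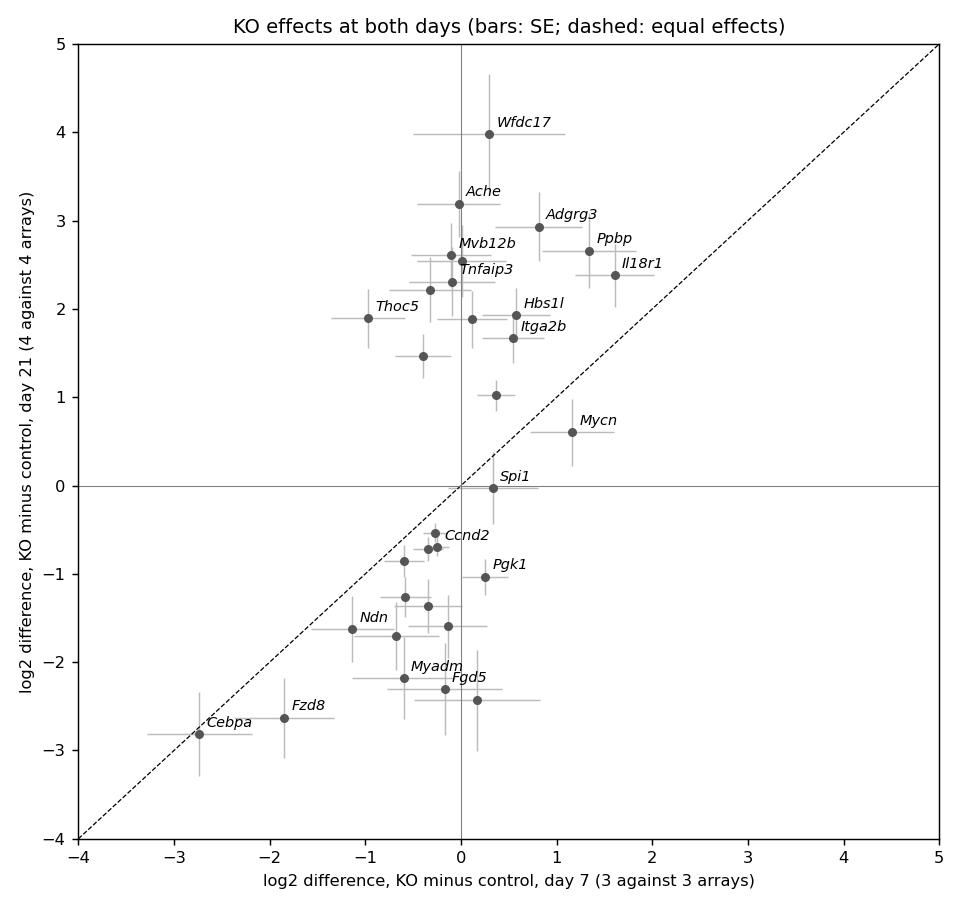
Log2 difference, KO minus control, at day 7 (x axis, 3 against 3 arrays) and day 21 (y axis, 4 against 4 arrays) for the genes named by their day 21 p-values and for Cebpa, Spi1 and Mycn; bars are SE and the dashed line marks equal effects. Cebpa lies near the dashed line at −2.73 and −2.82, while Ache, Mvb12b and Tnfaip3 lie near 0 at day 7 and above 2 at day 21; genes were picked on the y axis.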

How the data were processed

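The deposited table holds 1 intensity per probe set and array on a linear scale, which the authors had processed with RMA, per the submitters' processing notes; any later scaling is unknown. The lowest value is 16, and log2 of the deposited intensity was taken here, since log2 values had been assumed when the tests were set. Of 45101 probe sets, 34945 were annotated with 1 gene, 932 with several and 9160 with none; 34754 matched a RefSeq gene (GRCm38.p6). The probe set with the highest mean stood for each gene, and 1409 of 18193 genes at the floor on all arrays were left out. limma 3.58.1 (R 4.3.3) estimated 5 group means from the 17 arrays together (residual degrees of freedom 12, prior 1.5), and p-values were adjusted by Benjamini-Hochberg over all 16784 genes. The number of arrays limits the precision. A gene is called at an adjusted p under 0.05, and "rose" is used of called genes only. "At least" folds set the mean of log2 values against the floor.

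Genes named were Cebpa, Spi1 and Mycn, the called genes, up to 15 genes per direction with the smallest p among those whose groups did not overlap and that were brighter than the median probe set, and up to 4 such members per list; markers and list members outside this rule were picked after their values were seen. Members and lists were chosen with earlier results of these data known. On simulated data for the day 21 comparison (200 changed genes among 16784), 15.2% of 2-fold, 48.1% of 4-fold and 89.7% of 16-fold changes were recovered. Alternatives covered the arrays fitted, scaling, probe set choice, filters, moderation, array weights, covariates, the replicate number as a block, and leaving out each array. The main fit did not treat replicate numbers as pairs, and the labels do not say whether they are.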

Additional observations from a re-analysis of the deposited data

Results flagged for a closer look

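A single array stood apart from the other 3 of its group for 14 genes and 2 lists, by its gap to the nearest array over the group's range, given in brackets and compared with Dixon's critical value. Such gaps were found in 18 of 206 groups of 4 arrays tested. The critical value is set for about 1 in 20 groups of independent, normally spread values. That rate cannot be applied here, since the genes were picked from these data and share arrays. Where 3 of 4 arrays stood at the floor, the ratio was fixed at 1.0. Among the control arrays, replicate 1 was the highest for Gp9 (0.836) and Cdkn1c (0.918) and the lowest for Mpo (0.894). Control replicate 2 was the highest for Cd69 (1.0), Mitf (0.903) and Wfdc17 (0.936), and replicate 4 for Usp18 (1.0). Control replicate 3 was the lowest for Procr (0.878) and for the polycomb and DNA methylation list (0.906).

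Among the KO arrays, replicate 1 was the lowest for Cd69 (0.839), and replicate 2 the highest for Elane (1.0), where the other 3 stood at the floor. KO replicate 3 was the highest for Treml1 (0.871), Gp5 (0.875) and Mycn (0.897) and the lowest for Csf3r (0.895) and for the polycomb and DNA methylation list (0.906). KO replicate 4 was the highest for Plac8 (0.841) and for the interferon-stimulated list (0.865).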

How the results depend on the processing

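The count of 3 called genes was 0 with the 8 day 21 arrays alone, 8 with the 14 adult arrays, 5 with median centring, 19 with the mean of a gene's probe sets, 13 with a filter on dim genes, 8 with a raised floor, and 1 each with array weights, the floor share or the 3' to 5' ratio as a covariate. Leaving out single arrays gave 1 to 43 calls. The difference between the effects at both days was called for 0 to 2 genes when single arrays were left out. With the replicate number as a block 8 genes were called, all higher, and 2 of the 3 called genes kept their call. Same-numbered arrays had correlations of deviations from −0.03 to 0.02, and other pairs from −0.06 to 0.05. These values cannot show whether same-numbered samples were handled together, and the labels do not say.

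Signs turned for genes near 0 or with spread arrays: Elane had 0.0723 with the 3' to 5' ratio as a covariate, Tcf7l2 0.21 with the mean of its probe sets, and Slamf1 0.0450 with that mean, 0.0622 with array weights, 0.0142 with the floor share and 0.69 with the 3' to 5' ratio. When single arrays were left out, Gp9 ran from −1.58 to 0.0682, Gp5 from −0.62 to 0.92, Slamf1 from −0.53 to 0.38 and Spi1 from −0.46 to 0.31. The cause was not tested. Of the 45 lists examined, 25 had a median above 0, and 14 had one after median centring, which moved the median of all genes to −0.19; quantile normalization moved it to −0.08. Values at the floor carry no order, which limits genes such as Fcer1a, Cst7 and H2-Ob.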
